A study of Rattus norvegicus with 9 samples.

Results

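The genes described here encode the solute carriers of synovial fibroblasts of the rat, cells that line the joint and make its matrix. They are the rows of the expression table whose symbol begins with Slc followed by a digit and whose mean level over the 9 libraries was at least 1 FPKM. By the same rule 12 symbols were set aside by name: Slc1a4, Slc1a5, Slc2a1, Slc3a2, Slc7a1, Slc7a2, Slc7a3, Slc7a5, Slc7a11, Slc16a1, Slc16a3 and Slc38a2. This left 176 genes of 17298 in the table. In all, 313 rows carried the prefix; 187 reached 1 FPKM, and 11 of those were among the symbols set aside. Another 125 stayed below 1 FPKM, of which 2 (Slc26a8 and Slc6a17) reached it in the mean of 1 group. Just inside the limit stood Slc2a5 with a mean of 1.104 FPKM, Slc37a2 with 1.108 FPKM and Slc40a1 with 1.117 FPKM. Just outside it stood Slc6a17 with 0.971 FPKM, Slc26a8 with 0.934 FPKM and Slc10a2 with 0.808 FPKM. The rule used only the name and the mean level over all groups. In 12 of the 176 genes the mean of at least 1 group was below 1 FPKM, so that they entered through the groups where they were higher: 2 were highest in co-culture, 5 in IL-1β and 5 in control libraries. Counts over all 176 genes include them and are descriptions.

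Messenger RNA was sequenced from cells of WT genotype in 3 groups of 3 libraries. The co-culture cells received IL-1β, an inflammatory cytokine, and shared a transwell, a dish whose chambers are parted by a porous membrane, with dermal fibroblasts in the other chamber. The IL-1β cells received the cytokine in ordinary culture. The control cells were in ordinary culture without it. No group had dermal fibroblasts without IL-1β, so co-culture was measured only on top of the cytokine. None had the transwell without dermal fibroblasts, so the second cell type and the culture format cannot be told apart. The labels give neither dose nor duration, nor whether each library had its own animal or culture. The p-values therefore rest on a spread between libraries that may be technical only. The question the groups pose is how the cytokine changed the synovial fibroblasts, and how far co-culture moved them again.

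Solute carriers are a large set of membrane proteins that move small molecules and ions by facilitated diffusion, by exchange, or by coupling the movement to a gradient of sodium or protons. They are named by family, so that Slc39 genes encode importers of zinc and related metals, Slc30 genes zinc exporters, Slc25 genes the carriers of the inner mitochondrial membrane, and Slc35 genes the nucleotide sugar carriers of the Golgi apparatus and endoplasmic reticulum. In cells exposed to inflammatory cytokines, the handling of iron and zinc through such carriers is known to change. The 176 genes were sorted by the substrate their family is known for, which is not the substrate of every member. Symbols set aside by name are in no class, so the classes of amino acids, sugars and organic acids are incomplete. Mitochondrial carriers were the largest class with 36 genes, followed by metal ions and haem (26), amino acids, peptides and amines (23), nucleotide sugars (21), organic acids and organic ions (14), sugars and polyols (13), chloride, bicarbonate and other anions (12), nucleosides and vitamins (12), sodium, proton and calcium exchange (7), lipids, choline and acetyl-CoA (6) and phosphate (2). The other 4 genes carry the prefix without encoding a transporter: Slc9a3r1 and Slc9a3r2 encode scaffold proteins, Slc7a6os lies opposite Slc7a6, and Slc4a1ap encodes an adaptor protein.

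Values are FPKM, fragment numbers scaled by transcript length and library size, so they are relative within a library, and the read depth behind them is unknown. The FPKM of each library summed to between 679774 and 741810, and the 176 genes together took 0.623% to 0.648% of that sum. All 8 fibroblast markers examined reached 1 FPKM, with summed levels of 8384 to 8583 FPKM in co-culture, 5533 to 5737 FPKM in IL-1β and 9766 to 10285 FPKM in control libraries. Vim and Col1a1 carried most of these sums, and the listed markers did not move as one. Prg4, for example, had 300.54, 297.42 and 294.46 FPKM in IL-1β, against 96.85, 95.75 and 95.82 FPKM in control libraries, and Pdpn and Pdgfra were also higher in every IL-1β library than in every control library. Of the leukocyte markers, 5 were in the table and 1 reached 1 FPKM; they summed to 3.66 to 4.11 FPKM in co-culture, 5.96 to 8.26 FPKM in IL-1β and 3.13 to 4.09 FPKM in control libraries, and the pan-leukocyte gene Ptprc averaged 0.081 FPKM. All 5 endothelial markers stayed below 1 FPKM, summing to 0.51 to 0.62 FPKM in co-culture, 0.72 to 1.15 FPKM in IL-1β and 0.60 to 0.70 FPKM in control libraries. Of the epithelial markers 2 were in the table and 1 reached 1 FPKM, with sums of 1.70 to 2.17 FPKM in co-culture, 1.10 to 1.51 FPKM in IL-1β and 1.21 to 1.61 FPKM in control libraries, while Epcam averaged 0.028 FPKM. The 4 smooth muscle and pericyte markers in the table all reached 1 FPKM, and summed to 24.25 to 25.89 FPKM in co-culture, 10.88 to 13.48 FPKM in IL-1β and 26.03 to 27.30 FPKM in control libraries. The sums of all 5 lists thus moved with the groups: those of the leukocyte and endothelial markers were highest in IL-1β without overlap, that of the epithelial markers was highest in co-culture without overlap, and those of the fibroblast and smooth muscle markers were lowest in IL-1β without overlap. Their part in the results below was not tested. In such bulk RNA, fewer cells of a kind and less RNA per cell cannot be told apart.

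Among the 176 genes the mean level ran over a wide range, with a lowest mean of 1.10 FPKM, a median of 9.56 FPKM and a highest mean of 478.5 FPKM. Below 5 FPKM lay 54 genes, and 10 exceeded 100 FPKM. The most abundant were the mitochondrial adenine nucleotide carriers Slc25a4 and Slc25a5 and the mitochondrial phosphate carrier Slc25a3. The spread between libraries of a group was small for most: the coefficient of variation within a group, averaged over the 3 groups of each gene, had a median of 4.74%. That average exceeded 30% in 3 genes, Slc25a51, Slc2a3 and Slc40a1, and a single group exceeded 30% also in Slc29a2, Slc1a1 and Slc35g1, all named for that spread after their values were seen. Slc25a51, a mitochondrial carrier of NAD, was the only one of the 176 listed at 0 in any library. It had 7.43, 2.10 and 2.37 FPKM in co-culture, 0, 10.78 and 7.63 FPKM in IL-1β and 3.63, 3.04 and 19.60 FPKM in control libraries. Its groups overlapped completely, and no direction can be read from it.

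With IL-1β, the largest gains in FPKM among the transporter genes left by the rule were those of Slc20a1, Slc11a2, Slc39a14 and Slc25a37. These carry phosphate or metal ions. Of the 176 genes, 45 rose, 58 fell and 73 did not pass an adjusted p of 0.05 in IL-1β against control libraries, tested with limma on log2(FPKM + 1) over 11372 genes. That is 58.5% of the solute carriers, against 51.7% of all genes tested; 25.6% rose against 20.5% of all genes, and 33.0% fell against 31.2%. The shares of the solute carriers and of all genes were therefore close. The median log2 difference was -0.02 for the solute carriers and -0.04 for all genes tested. Changes of at least 1 on the log2 scale were seen in 10 genes that rose, where such rises made up 2.74% of all genes, and in 2 genes that fell, where such falls made up 1.86%. Among the 10 were Slc15a3 and Slc47a1, which averaged below 1 FPKM in both other groups and entered the set through their IL-1β level alone, so that a rise was fixed by the rule. The balance between directions moved with the scaling: with libraries rescaled by the median of ratios, 58 rose and 49 fell.

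**Figure D1:**
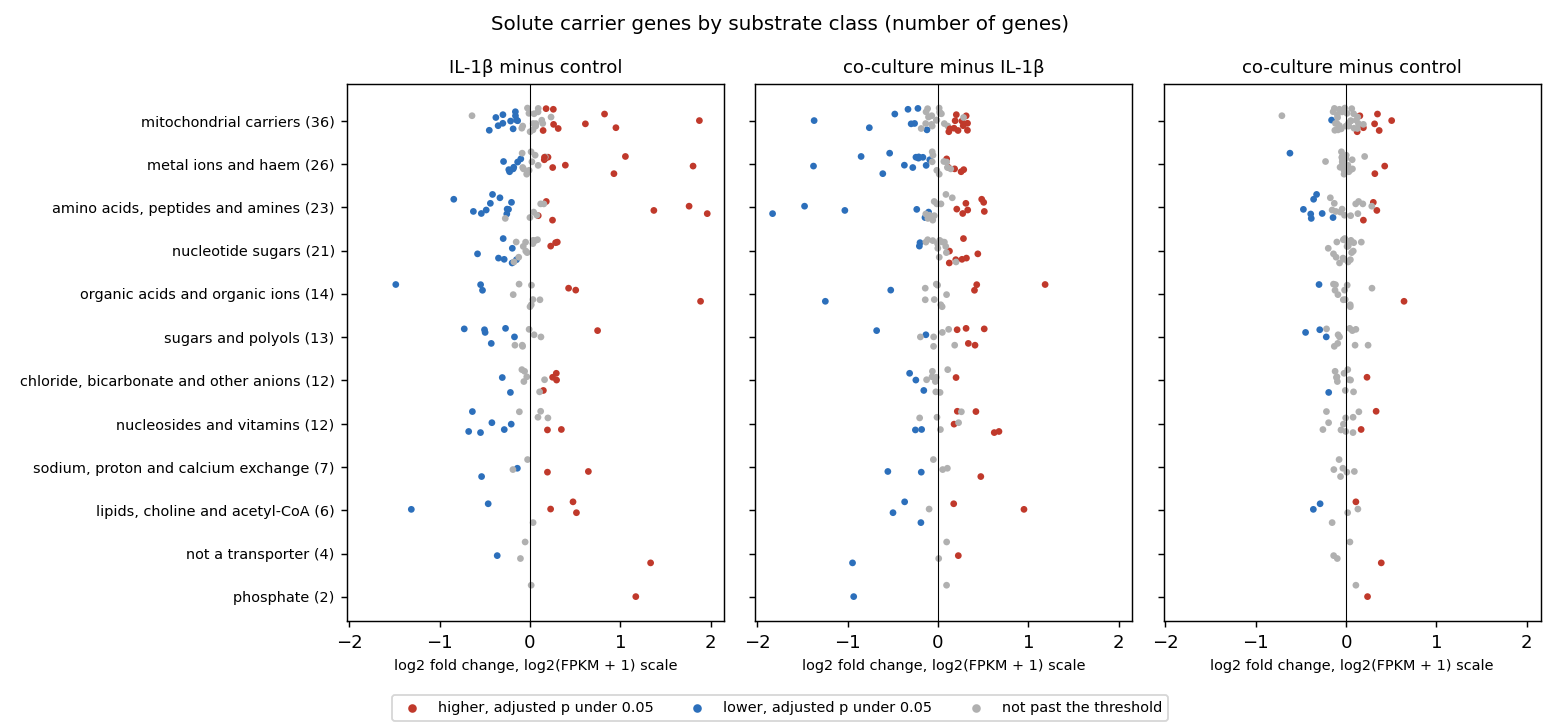
Each point is 1 of 174 of the 176 solute carrier genes, placed by its log2 fold change on the log2(FPKM + 1) scale (horizontal axis) and by substrate class (rows), for 3 comparisons; red and blue points passed an adjusted p of 0.05. IL-1β against control spans -1.49 to 1.96, co-culture against IL-1β -1.83 to 1.19, and co-culture against control stays within -0.71 to 0.64.

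Metal carriers went in both directions, with 9 of 26 genes higher in IL-1β than in control libraries (34.6%, against 20.5% of all genes) and 7 lower (26.9%, against 31.2%). Slc11a2 (gene ID 25715) encodes DMT1, the proton-coupled importer of ferrous iron. Its level was 113.67, 113.79 and 112.99 FPKM in IL-1β libraries, against 32.16, 31.37 and 31.70 FPKM in control libraries. Co-culture libraries held 43.11, 43.37 and 42.63 FPKM, between the other groups and overlapping neither. The rise with IL-1β was 1.81 ± 0.03 (log2 difference ± SE, adjusted p = 2.4e-13, limma). That was the smallest adjusted p of any solute carrier gene left by the rule. Slc25a37 (gene ID 306000) encodes mitoferrin-1, which brings iron into mitochondria, and is counted with the mitochondrial carriers, not among the 26. It had 81.19, 82.50 and 81.00 FPKM in IL-1β, against 21.11, 21.58 and 21.79 FPKM in control libraries. In co-culture it had 30.62, 29.69 and 32.51 FPKM, again between the other groups without overlap. Its rise with IL-1β was 1.88 ± 0.04 (SE, adjusted p = 2.7e-12, limma). Slc25a28, which encodes mitoferrin-2, went the other way, with means of 14.2 FPKM in IL-1β and 17.7 FPKM in control libraries. That log2 difference was -0.30 ± 0.05 (SE, adjusted p = 3.3e-04, limma), and the gene was named after its values were seen. 

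The zinc importer genes of the Slc39 family split: Slc39a14, Slc39a8, Slc39a6 and Slc39a5 rose with IL-1β, Slc39a1, Slc39a13, Slc39a10 and Slc39a11 fell, and Slc39a7, Slc39a9 and Slc39a3 did not pass. The calls of Slc39a5 and Slc39a11 were weak, lost in 9 of 17 and in 7 of 18 alternatives with adjusted p of up to 0.16 and 0.13 (limma). Slc39a14 (gene ID 306009), which encodes ZIP14, a zinc importer that also carries iron and manganese, had 149.03, 152.88 and 153.86 FPKM in IL-1β, against 79.52, 79.65 and 78.58 FPKM in control libraries. Its co-culture libraries held 100.32, 99.42 and 97.59 FPKM. All 3 groups were apart, and the rise with IL-1β was 0.93 ± 0.03 (SE, adjusted p = 8.3e-11, limma). Slc39a8 (gene ID 295455), which encodes the related ZIP8, was far less abundant, with 6.70, 5.99 and 7.17 FPKM in IL-1β and 2.35, 2.71 and 2.93 FPKM in control libraries. Its co-culture values of 3.29, 3.12 and 3.24 FPKM lay just above those of the controls, a difference that did not pass (adjusted p = 0.079, limma). The rise of Slc39a8 with IL-1β was 1.06 ± 0.08 (SE, adjusted p = 2.9e-07, limma). Slc39a7, which encodes ZIP7 and releases zinc from the endoplasmic reticulum, was the most abundant of the metal carriers and gave no such pattern. It averaged 146 ± 2.24 FPKM in co-culture, 147 ± 2.91 FPKM in IL-1β and 148 ± 3.10 FPKM in control libraries (SD, n = 3 each). The groups overlapped, and the log2 difference of IL-1β from control was -0.01 ± 0.03 (SE, adjusted p = 0.82, limma).

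Of the 2 phosphate carrier genes, 1 showed the same order of groups. Slc20a1 (gene ID 81826) encodes the sodium-phosphate cotransporter PiT-1. Its level was 169.91, 173.32 and 175.57 FPKM in IL-1β, against 75.60, 74.96 and 78.07 FPKM in control libraries. Co-culture libraries had 88.19, 89.46 and 92.62 FPKM, and no group overlapped another. The rise was 1.17 ± 0.03 (SE, adjusted p = 3.1e-11, limma). Its paralogue Slc20a2, which encodes PiT-2, averaged 14.6 ± 0.639 FPKM in co-culture, 13.6 ± 0.526 FPKM in IL-1β and 13.4 ± 0.214 FPKM in control libraries (SD, n = 3 each), and passed no test (adjusted p = 0.81 with IL-1β, limma).

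**Figure D2:**
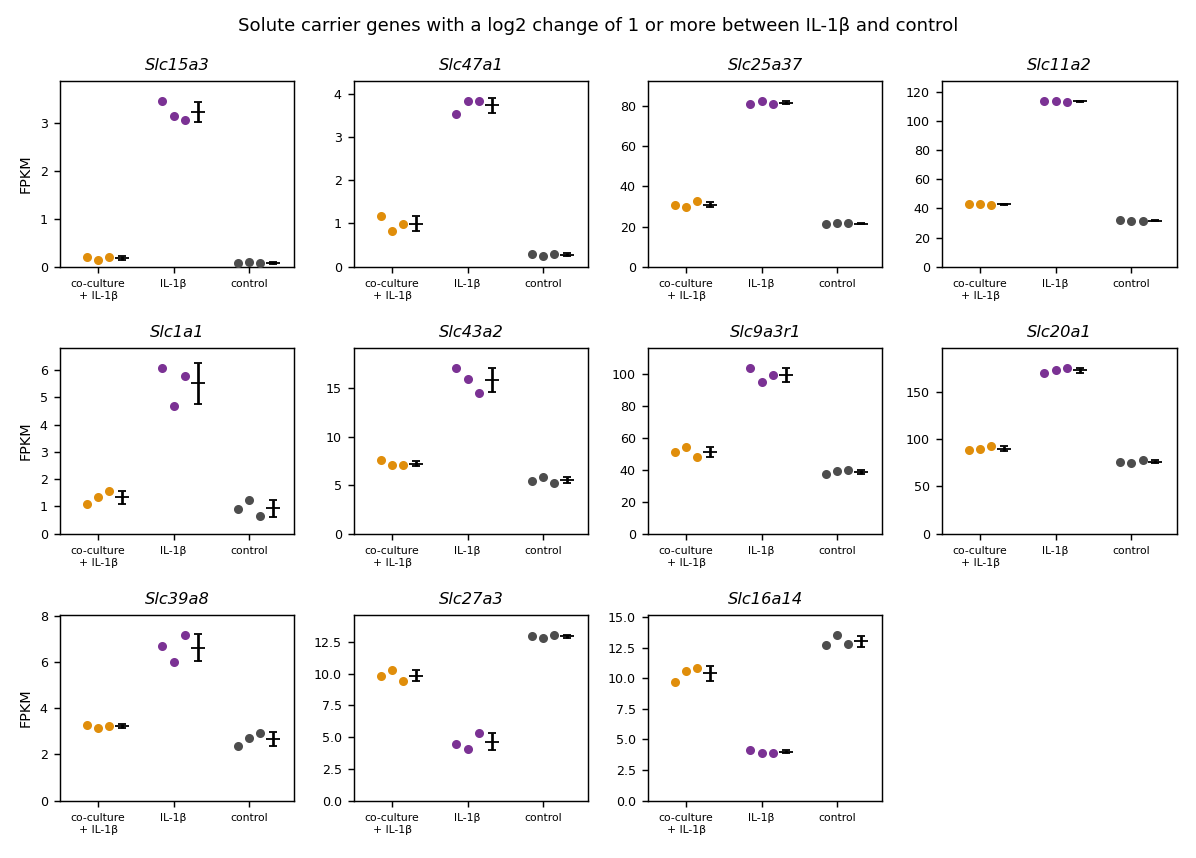
FPKM (vertical axis, from 0) in each library of 11 genes whose log2 change was 1 or more between IL-1β and control; points are libraries, and the bar beside them is the mean with its SD (n = 3). In 9 genes the IL-1β libraries are highest and in Slc27a3 and Slc16a14 lowest, and the co-culture means lie between the means of the other groups in all 11. The genes were chosen by that change in these same libraries, so the order of groups is a description. For Slc15a3 and Slc47a1 the rule fixed IL-1β as the highest group.

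The other large rises came from several classes and mostly from low levels. Slc15a3 (gene ID 246239), a lysosomal carrier of histidine and small peptides, was at 3.45, 3.13 and 3.06 FPKM in IL-1β, against 0.07, 0.10 and 0.07 FPKM in control libraries, and co-culture libraries held 0.21, 0.14 and 0.20 FPKM. The gene was thus close to the floor of the table outside the IL-1β group, and its log2 difference of 1.96 ± 0.08 (SE) is given as a description only, because it reached the level limit through IL-1β alone. Slc47a1 (gene ID 360539), an exporter of organic cations, was at 3.53, 3.83 and 3.83 FPKM in IL-1β, against 0.29, 0.24 and 0.30 FPKM in control libraries. Its co-culture values of 1.18, 0.83 and 0.98 FPKM overlapped neither group. It too reached the limit through IL-1β alone, and its log2 difference of 1.89 ± 0.08 (SE) is likewise a description. Slc1a1 (gene ID 25550) encodes EAAT3, a carrier of glutamate and cysteine. It had 6.08, 4.67 and 5.78 FPKM in IL-1β and 0.90, 1.24 and 0.64 FPKM in control libraries, a log2 difference of 1.76 ± 0.12 (SE, adjusted p = 2.9e-07, limma), with a control mean below 1 FPKM. In co-culture it had 1.10, 1.34 and 1.57 FPKM, which overlapped the controls.

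Slc43a2 (gene ID 287532) encodes LAT4, a carrier of branched-chain and aromatic amino acids. Its values were 17.09, 15.91 and 14.53 FPKM in IL-1β, against 5.48, 5.82 and 5.20 FPKM in control libraries, with 7.58, 7.08 and 7.03 FPKM in co-culture. The rise was 1.37 ± 0.06 (SE, adjusted p = 5.3e-09, limma), and the groups did not overlap. Slc9a3r1 (gene ID 59114), the scaffold gene called Nherf1 in RefSeq, had 103.65, 94.72 and 98.95 FPKM in IL-1β and 37.24, 39.08 and 39.57 FPKM in control libraries. Its co-culture libraries had 51.18, 54.02 and 47.77 FPKM, and the rise with IL-1β was 1.34 ± 0.05 (SE, adjusted p = 6.6e-10, limma).

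Falls of this size were rarer. Slc16a14 (gene ID 316578), an orphan member of the monocarboxylate carrier family, had 4.15, 3.93 and 3.93 FPKM in IL-1β, against 12.68, 13.55 and 12.79 FPKM in control libraries. Co-culture libraries had 9.70, 10.61 and 10.87 FPKM, below every control and above every IL-1β library. The log2 difference with IL-1β was -1.49 ± 0.05 (SE, adjusted p = 5.4e-10, limma). Slc27a3 (gene ID 295219), which encodes an acyl-CoA synthetase of the fatty acid transport protein family, had 4.44, 4.08 and 5.36 FPKM in IL-1β, against 12.95, 12.76 and 13.05 FPKM in control libraries. Its co-culture libraries had 9.80, 10.31 and 9.41 FPKM, and the log2 difference with IL-1β was -1.31 ± 0.07 (SE, adjusted p = 3.2e-08, limma). For each of these 11 genes the call between IL-1β and control held under every alternative run on it. For Slc15a3 and Slc47a1 this carries no weight, because the rule fixed their rise in advance. Slc39a8, Slc15a3, Slc47a1 and Slc1a1 had means below 5 FPKM and were not part of the alternative with a filter at that level.

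Promoter sequences from RefSeq (assembly GRCr8), running 250 bases before to 50 bases after the start, were found by gene ID for 133 of the 176 genes, and for 4 of the 11 transporter genes whose log2 change was 1 or more. They are shown so that the sequence upstream of genes with changes of this size can be read beside their values. Capitals mark a match to the NF-kB motif, searched on both strands, as in all promoters of the table.
Slc11a2, chr7:133417739-133418038, minus strand: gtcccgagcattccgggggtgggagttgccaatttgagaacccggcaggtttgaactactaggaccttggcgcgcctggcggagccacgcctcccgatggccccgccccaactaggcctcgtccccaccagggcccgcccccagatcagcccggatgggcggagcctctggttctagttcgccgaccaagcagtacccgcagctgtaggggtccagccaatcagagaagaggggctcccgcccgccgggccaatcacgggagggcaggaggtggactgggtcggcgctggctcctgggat
Slc39a8, chr2:226929941-226930240, plus strand: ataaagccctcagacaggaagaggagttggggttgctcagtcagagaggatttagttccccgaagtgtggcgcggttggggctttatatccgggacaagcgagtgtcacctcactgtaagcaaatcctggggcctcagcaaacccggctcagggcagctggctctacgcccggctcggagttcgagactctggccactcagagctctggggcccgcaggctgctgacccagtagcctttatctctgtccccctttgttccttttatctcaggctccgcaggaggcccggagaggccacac
Slc43a2, chr10:60874588-60874887, plus strand: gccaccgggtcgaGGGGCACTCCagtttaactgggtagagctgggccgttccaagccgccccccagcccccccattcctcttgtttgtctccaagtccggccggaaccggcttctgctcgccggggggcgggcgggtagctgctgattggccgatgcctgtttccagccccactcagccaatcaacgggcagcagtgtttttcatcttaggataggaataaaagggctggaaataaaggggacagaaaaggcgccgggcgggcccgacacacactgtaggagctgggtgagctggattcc
Slc27a3, chr2:178155454-178155753, minus strand: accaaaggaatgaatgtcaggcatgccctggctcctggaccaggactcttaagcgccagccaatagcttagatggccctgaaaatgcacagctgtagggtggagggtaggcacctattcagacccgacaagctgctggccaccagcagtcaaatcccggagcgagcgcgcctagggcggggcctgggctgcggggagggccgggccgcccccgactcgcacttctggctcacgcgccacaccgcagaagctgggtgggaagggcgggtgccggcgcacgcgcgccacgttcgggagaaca
The promoter of Slc43a2 held 1 NF-kB match and the other 3 promoters none. None of the 4 held the AP-1 motif TGANTCA or a metal response element, spelled TGCACNC or TGCGCNC and searched on both strands. Among all 33469 promoters, 7.51% held an NF-kB match, 7.33% an AP-1 match and 24.2% a metal response element. Among the 133 solute carrier promoters, 17 (12.8%) held an NF-kB match, 5 (3.76%) an AP-1 match and 48 (36.1%) a metal response element. Over the 9087 promoters of genes tested here, those shares were 9.88%, 4.59% and 37.3%. An NF-kB match stood in 3 of the 32 promoters of solute carriers that rose with IL-1β (9.38%) and in 8 of the 45 of those that fell (17.8%). Such matches describe the letters in this window and are not binding sites.

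The balance in the class of metal ions and haem depended on the scaling: with the median of ratios, 12 of the 26 genes rose with IL-1β and 4 fell. Against IL-1β, co-culture gave 5 rises (19.2%, against 33.3% of all genes) and 12 falls (46.2%, against 16.7%), which became 2 and 14 with the median of ratios. The median differences for IL-1β against control and for co-culture against IL-1β were 0.02 and -0.06 on the log2 scale, against -0.04 and 0.06 over all genes tested. The summed level of the class was 927 ± 4.39 FPKM in co-culture, 1085 ± 6.89 FPKM in IL-1β and 906 ± 0.54 FPKM in control libraries (SD, n = 3 each). The IL-1β libraries stood apart from both other groups, with most of the gain over control from Slc11a2 and Slc39a14. Library totals also differed, with 718498 to 741810 FPKM in IL-1β and 679774 to 696329 FPKM in control libraries. Slc48a1, which encodes the haem transporter HRG1, averaged 108 ± 1.82 FPKM in co-culture, 128 ± 2.10 FPKM in IL-1β and 111 ± 0.380 FPKM in control libraries (SD, n = 3 each). Its rise with IL-1β was modest, 0.20 ± 0.03 (SE, adjusted p = 6.9e-05, limma). Slc39a1, which encodes the plasma membrane zinc importer ZIP1, fell with IL-1β, with means of 108 ± 0.866 FPKM in IL-1β and 116 ± 1.92 FPKM in control libraries (SD, n = 3 each). That log2 difference of -0.10 ± 0.03 (SE, adjusted p = 0.013, limma) lost its call with the median of ratios, which gave the highest adjusted p of 18 alternatives (0.12). Iron export goes through ferroportin, encoded by Slc40a1, which was barely above the limit of the rule. It had 0.30, 0.94 and 0.55 FPKM in co-culture, 0.95, 1.20 and 1.77 FPKM in IL-1β and 1.25, 1.94 and 1.15 FPKM in control libraries. IL-1β and control libraries overlapped, while every co-culture library lay below every library of the other groups. The gap to IL-1β was narrow, with 0.94 against 0.95 FPKM in the closest libraries. That log2 difference of -0.54 ± 0.18 (SE, adjusted p = 0.027, limma) was weak. Its call was lost in 5 of 17 alternatives, with adjusted p of up to 0.099 (limma).

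Genes that act beside the metal carriers were followed as a list of 23, of which 19 were tested. The list was chosen with earlier results of these data known, so its shares are descriptions only. With IL-1β 11 rose (57.9%, against 20.5% of all genes) and 5 fell (26.3%, against 31.2%). In co-culture against IL-1β 6 rose (31.6%, against 33.3%) and 9 fell (47.4%, against 16.7%), with median log2 differences of 0.27 and -0.16 where all genes tested had -0.04 and 0.06. Lcn2, which encodes lipocalin 2, a protein that binds iron-carrying siderophores, had 4108, 3925 and 3854 FPKM in IL-1β and 38.33, 42.42 and 48.39 FPKM in control libraries. Its co-culture libraries had 524.94, 515.74 and 487.58 FPKM, far from both. Mt2A, which encodes a metallothionein that binds zinc and copper, averaged 2740 ± 82.6 FPKM in co-culture, 4162 ± 134 FPKM in IL-1β and 1746 ± 28.2 FPKM in control libraries (SD, n = 3 each). Genes of the Steap family of metalloreductases did not share 1 order. Steap2, whose product reduces ferric iron before import, averaged 73.7 ± 1.60 FPKM in co-culture, 146 ± 2.01 FPKM in IL-1β and 56.6 ± 0.930 FPKM in control libraries (SD, n = 3 each). Steap1 averaged 168 ± 1.47 FPKM in co-culture, 297 ± 8.46 FPKM in IL-1β and 126 ± 5.13 FPKM in control libraries (SD, n = 3 each). For Lcn2, Mt2A, Steap2 and Steap1 every pair of groups differed, with adjusted p of 7.8e-06 or less (limma). Steap3 went the other way, with 42.9 ± 2.25 FPKM in co-culture, 22.4 ± 0.944 FPKM in IL-1β and 48.0 ± 1.004 FPKM in control libraries (SD, n = 3 each). Steap4 was highest in co-culture, with 9.49 ± 0.280 FPKM there, 8.35 ± 0.332 FPKM in IL-1β and 4.99 ± 0.040 FPKM in control libraries (SD, n = 3 each). Beside Steap3, the genes that fell with IL-1β were Ftl1, which encodes the ferritin light chain, Tfrc, the transferrin receptor, Hmox1, which encodes haem oxygenase 1, and Aco1, which encodes an iron regulatory protein. Their counterparts Fth1, which encodes the ferritin heavy chain, and Ireb2, which encodes another iron regulatory protein, rose instead (adjusted p of 7.5e-05 and 0.0011, limma). The genes of this list that fell, and Steap4, Fth1 and Ireb2, were named after their values were seen.

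The mitochondrial carriers, led by the 3 most abundant of the solute carrier genes left by the rule, went in both directions with IL-1β. Of the 36, 9 rose (20.5% of all genes did) and 11 fell (30.6%, against 31.2%), with a median of 0.04 on the log2 scale. Against IL-1β, 11 rose in co-culture (30.6%, against 33.3%) and 8 fell (22.2%, against 16.7%), and with the median of ratios 8 rose and 12 fell. Slc25a4 had 541.08, 513.20 and 538.27 FPKM in co-culture, 429.69, 424.56 and 427.48 FPKM in IL-1β and 468.01, 473.48 and 490.86 FPKM in control libraries. Its co-culture libraries were above every control and its IL-1β libraries below every control. The log2 difference was -0.16 ± 0.03 with IL-1β against control (SE, adjusted p = 0.0011, limma) and 0.31 ± 0.03 in co-culture against IL-1β (SE, adjusted p = 7.4e-06, limma). Slc25a3 averaged 487 ± 5.06 FPKM in co-culture, 426 ± 7.27 FPKM in IL-1β and 469 ± 8.37 FPKM in control libraries (SD, n = 3 each), and fell with IL-1β by 0.14 on the log2 scale (SE 0.03, adjusted p = 0.0014, limma). Slc25a5 averaged 375 ± 1.95 FPKM in co-culture, 345 ± 6.74 FPKM in IL-1β and 344 ± 4.76 FPKM in control libraries (SD, n = 3 each). It overlapped between IL-1β and control and was higher in co-culture than in either, calls that were lost with the median of ratios against IL-1β (adjusted p = 0.093, the highest of 18 alternatives) and with quantile normalization against control (adjusted p = 0.16, the highest of 18). The whole class summed to 2004 ± 13.99 FPKM in co-culture, 1826 ± 17.8 FPKM in IL-1β and 1895 ± 41.4 FPKM in control libraries (SD, n = 3 each), with most of each sum from these 3 genes.

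Beside mitoferrin-1, the mitochondrial genes higher in IL-1β included Slc25a25, which encodes a calcium-regulated carrier of ATP-magnesium and phosphate, and Slc25a29, which encodes a carrier of basic amino acids. Slc25a25 had 12.83, 12.33 and 12.63 FPKM in IL-1β, against 5.84, 6.16 and 6.09 FPKM in control libraries, a rise of 0.95 ± 0.06 (SE, adjusted p = 8.6e-08, limma). Slc25a29 had 2.41, 2.25 and 2.64 FPKM in IL-1β, against 1.03, 0.94 and 0.84 FPKM in control libraries, a log2 difference of 0.83 ± 0.08 (SE, adjusted p = 4.1e-06, limma), with a control mean below 1 FPKM. Neither gene overlapped between these groups. Slc25a13, which encodes the aspartate-glutamate carrier citrin, was highest in co-culture, with 12.59, 11.66 and 12.65 FPKM. Its IL-1β libraries had 10.55, 9.77 and 10.91 FPKM and its controls 9.08, 9.37 and 9.47 FPKM. It was higher in co-culture than in IL-1β libraries by 0.22 ± 0.05 (SE, adjusted p = 0.0037, limma) and than in control libraries by 0.37 ± 0.05 (SE, adjusted p = 4.0e-04, limma). Its smaller rise with IL-1β, 0.15 ± 0.05 (SE, adjusted p = 0.032, limma), lost its call when IL-1β replicate 1 or 3 or any control library was left out (log2 difference 0.11 to 0.16, adjusted p of 0.05 to 0.11).

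**Figure D3:**
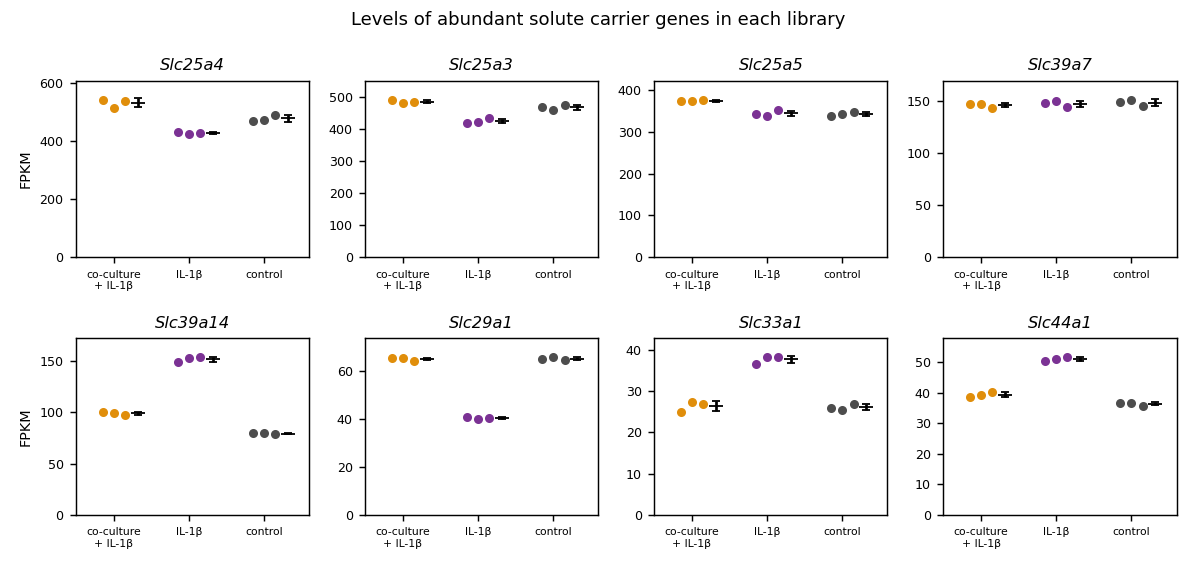
FPKM (vertical axis, from 0) in each library of 8 abundant solute carrier genes; points are libraries, and the bar beside them is the mean with its SD (n = 3). The 3 mitochondrial carriers are highest in co-culture, Slc39a7 is level near 147 FPKM in IL-1β, Slc29a1 is lowest in IL-1β, and Slc39a14, Slc33a1 and Slc44a1 are highest in IL-1β.

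Among carriers of amino acids, peptides and amines, 11 of 23 genes fell with IL-1β (47.8%, against 31.2% of all genes) and 6 rose (26.1%, against 20.5%). The median log2 difference was -0.20, against -0.04 for all genes. The class lacks Slc1a4, Slc1a5, Slc3a2, Slc7a1, Slc7a2, Slc7a3, Slc7a5, Slc7a11 and Slc38a2, which were set aside by name. Its shares therefore describe the remaining genes only. In co-culture against IL-1β 7 rose (30.4%, against 33.3%) and 6 fell (26.1%, against 16.7%), and with the median of ratios 6 rose and 8 fell. Slc38a4, which encodes a sodium-coupled carrier of neutral amino acids, had 2.22, 2.36 and 2.41 FPKM in IL-1β, against 5.30, 4.63 and 5 FPKM in control libraries. It had 4.05, 3.40 and 3.54 FPKM in co-culture, between the other groups without overlap. Slc43a1 encodes LAT3, a close relative of the LAT4 gene that rose, and it went the other way, with 2.19, 2.35 and 2.27 FPKM in IL-1β and 4.43, 3.52 and 4.23 FPKM in control libraries. The log2 differences with IL-1β were -0.84 ± 0.07 for Slc38a4 (SE, adjusted p = 1.1e-06, limma) and -0.63 ± 0.08 for Slc43a1 (SE, adjusted p = 3.0e-05, limma). The creatine carrier gene Slc6a8 averaged 14.2 ± 0.369 FPKM in co-culture, 11.6 ± 0.044 FPKM in IL-1β and 17.3 ± 0.146 FPKM in control libraries (SD, n = 3 each). Its groups were all apart, and it fell with IL-1β by 0.54 on the log2 scale (SE 0.04, adjusted p = 2.1e-07, limma).

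Some amino acid carriers stayed below control in co-culture. The glycine carrier gene Slc6a9 was lowest in co-culture, with 11.79, 11.27 and 10.64 FPKM, against 13.43, 13.17 and 13.57 FPKM in IL-1β and 16.04, 16.19 and 15.64 FPKM in control libraries. The log2 difference was -0.24 ± 0.04 with IL-1β against control (SE, adjusted p = 8.1e-04, limma) and -0.24 ± 0.04 in co-culture against IL-1β (SE, adjusted p = 9.6e-04, limma). Slc7a8, which encodes LAT2, averaged 1.20 ± 0.084 FPKM in co-culture, 1.42 ± 0.115 FPKM in IL-1β and 1.89 ± 0.132 FPKM in control libraries (SD, n = 3 each). Slc7a7, which encodes y+LAT1, averaged 1.54 ± 0.082 FPKM in co-culture, 1.39 ± 0.110 FPKM in IL-1β and 2.197 ± 0.360 FPKM in control libraries (SD, n = 3 each). Both were lower in co-culture than in control libraries (adjusted p of 0.0028 for Slc7a8 and 0.022 for Slc7a7, limma), and neither passed between co-culture and IL-1β (adjusted p of 0.15 and 0.43). The call of Slc7a7 against control was lost without co-culture replicate 1 or 3 or without control replicate 1 or 2 (log2 difference -0.33 to -0.24, adjusted p of 0.053 to 0.087). Slc1a3, which encodes the glutamate carrier EAAT1 and was the second most abundant gene of the class, was instead highest in co-culture. It had 42.24, 43.58 and 42.15 FPKM there, against 30.39, 28.32 and 30.58 FPKM in IL-1β and 34.67, 34.52 and 34.07 FPKM in control libraries, and no groups overlapped. The most abundant gene of the class, Slc38a10, averaged 59.7 ± 0.681 FPKM in co-culture, 64.2 ± 1.84 FPKM in IL-1β and 62.4 ± 1.85 FPKM in control libraries (SD, n = 3 each).

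Of the sugar and polyol carriers 6 of 13 fell with IL-1β (46.2%, against 31.2% of all genes) and 1 rose (7.69%, against 20.5%). The median log2 difference was -0.17, against -0.04 for all genes. Slc2a1, set aside by name, is not in the class. Co-culture libraries had 5 genes above IL-1β (38.5%, against 33.3%) and 2 below (15.4%, against 16.7%). The gene that rose, Slc2a6, encodes the lysosomal hexose carrier GLUT6, and had 7.86, 8.09 and 6.63 FPKM in IL-1β, against 4.40, 3.67 and 4.13 FPKM in control libraries. Its co-culture values, 4.20, 4.59 and 4.15 FPKM, overlapped the controls, and its rise with IL-1β was 0.75 ± 0.08 (SE, adjusted p = 8.7e-06, limma). Slc2a12, which encodes GLUT12, averaged 3.31 ± 0.319 FPKM in co-culture, 2.02 ± 0.026 FPKM in IL-1β and 4.01 ± 0.385 FPKM in control libraries (SD, n = 3 each). Slc2a10, which encodes GLUT10, had a similar order, with 2.24 ± 0.101 FPKM in co-culture, 1.80 ± 0.097 FPKM in IL-1β and 2.96 ± 0.112 FPKM in control libraries (SD, n = 3 each). The proton-coupled myo-inositol carrier gene Slc2a13 fell as well but did not differ detectably between co-culture and IL-1β. It had 2.15, 2.41 and 2.37 FPKM in co-culture and 2.15, 2.28 and 2.17 FPKM in IL-1β, against 3.77, 3.34 and 3.44 FPKM in control libraries. Its log2 difference of co-culture from IL-1β was 0.05 ± 0.06 (SE, adjusted p = 0.56, limma). Slc50a1, which encodes the SWEET1 sugar carrier, and Slc37a4, which encodes the glucose 6-phosphate carrier of the endoplasmic reticulum, fell with IL-1β by 0.43 and 0.27 on the log2 scale (adjusted p of 8.7e-06 and 7.9e-04, limma). Slc37a3, the most abundant gene of the class at 49.8 ± 1.03 FPKM in IL-1β and 48.2 ± 0.998 FPKM in control libraries (SD, n = 3 each), did not pass (adjusted p = 0.25, limma).

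**Figure D4:**
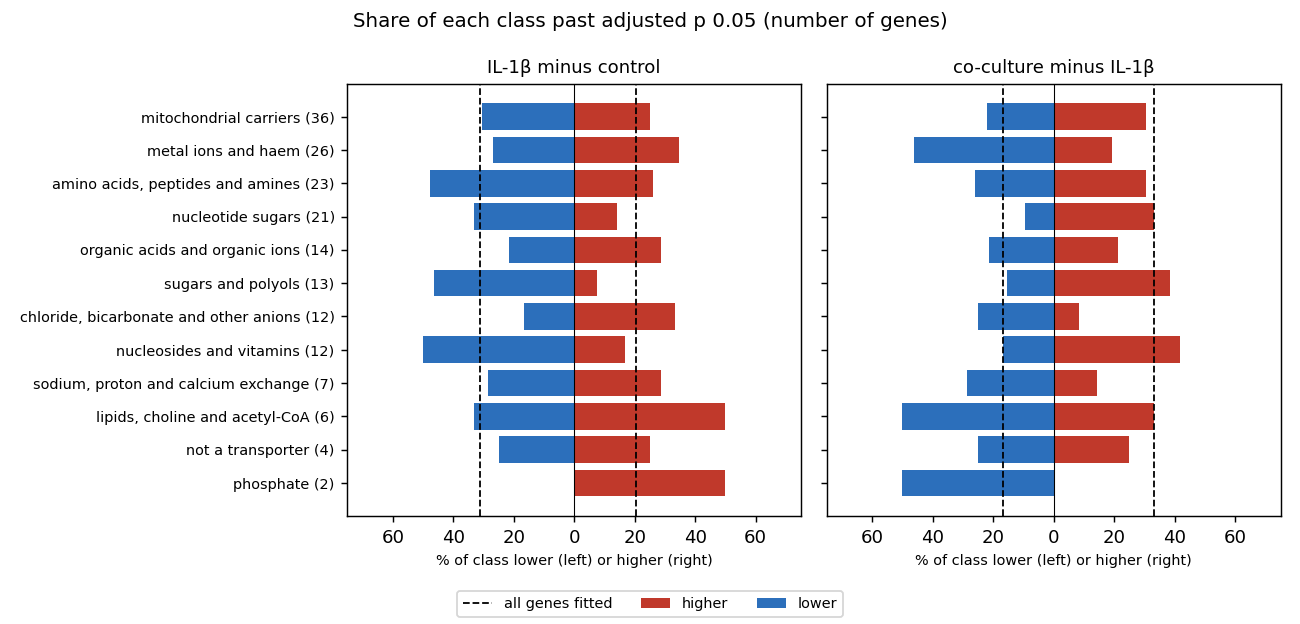
Bars give the percentage of each substrate class (number of genes in brackets) that passed an adjusted p of 0.05, lower to the left and higher to the right, for IL-1β against control and co-culture against IL-1β; dashed lines are the shares of all genes tested. With IL-1β the lower share reaches beyond 31.2% for amino acid, sugar and nucleoside carriers and slightly for nucleotide sugar and lipid carriers. Symbols set aside by name are in no class.

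Nucleotide sugar carriers bring activated sugars into the Golgi apparatus and endoplasmic reticulum for glycosylation. The class holds Slc35 genes by family, and some, such as Slc35b1 and Slc35b2 below, carry other substrates. Its counts therefore describe the family and not the supply of sugars. With IL-1β 3 of 21 rose (14.3%, against 20.5% of all genes) and 7 fell (33.3%, against 31.2%). Set against IL-1β, co-culture libraries had 7 higher (33.3%, the same share as of all genes) and 2 lower (9.52%, against 16.7%), which became 3 and 4 with the median of ratios. Slc35b1, which encodes an ATP carrier of the endoplasmic reticulum, was the most abundant, with 102 ± 2.21 FPKM in co-culture, 118 ± 3.39 FPKM in IL-1β and 96.6 ± 2.97 FPKM in control libraries (SD, n = 3 each). Slc35f5 rose too, by 0.23 ± 0.04 (SE, adjusted p = 5.6e-04, limma). Slc35e3 went the other way, with 54.6 ± 1.73 FPKM in co-culture, 44.7 ± 1.66 FPKM in IL-1β and 55.1 ± 0.275 FPKM in control libraries (SD, n = 3 each). Slc35b2, a carrier of the sulfate donor PAPS, averaged 53.8 ± 3.01 FPKM in co-culture, 46.8 ± 2.25 FPKM in IL-1β and 52.0 ± 1.58 FPKM in control libraries (SD, n = 3 each). Slc35g1 was at a low level, with 1.14, 1.15 and 0.61 FPKM in IL-1β and 2.45, 1.74 and 1.62 FPKM in control libraries; its IL-1β mean was below 1 FPKM, so that it reached the limit through the other groups. Between co-culture and control libraries 0 of the 21 passed with limma, against 20.3% of all genes; 5 had an unadjusted p under 0.05, and with the median of ratios 1 fell.

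Nucleoside and vitamin carriers fell in 6 of 12 cases with IL-1β (50.0%, against 31.2% of all genes) and rose in 2 (16.7%, against 20.5%); the median log2 difference was -0.16. With the median of ratios the counts were 5 and 5. The smallest adjusted p of the class was that of Slc29a1, which encodes ENT1, the main equilibrative nucleoside carrier, through which adenosine crosses the plasma membrane. It had 40.71, 40.18 and 40.48 FPKM in IL-1β, against 65.26, 65.93 and 64.79 FPKM in control libraries. Co-culture libraries, with 65.55, 65.44 and 64.56 FPKM, overlapped the controls. The log2 difference was -0.68 ± 0.03 with IL-1β against control (SE, adjusted p = 1.6e-09, limma), 0.68 ± 0.03 in co-culture against IL-1β (SE, adjusted p = 3.0e-09, limma) and -0.003 ± 0.027 in co-culture against control (SE, adjusted p = 0.95, limma). Slc29a2, which encodes the related ENT2, and Slc17a9, which encodes the vesicular nucleotide carrier VNUT, were also lower in IL-1β, at low levels, and reached the limit through the other groups. Slc29a2 had 1.25, 0.65 and 0.81 FPKM in IL-1β, against 1.77, 1.78 and 1.72 FPKM in control libraries. Slc17a9 had 0.96, 0.63 and 0.74 FPKM in IL-1β, against 1.72, 1.91 and 1.64 FPKM in control libraries. Neither overlapped between these groups. Slc52a2, a riboflavin carrier, and Slc23a2, an ascorbate carrier, were the genes that rose, by 0.35 and 0.19 on the log2 scale (adjusted p of 1.1e-04 and 0.0023, limma). The reduced folate carrier gene Slc19a1 was highest in co-culture, with 6.05, 6.07 and 6.92 FPKM, against 5.55, 5.29 and 5.14 FPKM in IL-1β and 4.98, 4.72 and 4.77 FPKM in control libraries.

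Chloride and bicarbonate carriers changed little in size. With IL-1β 4 of 12 anion carriers rose (33.3%, against 20.5% of all genes) and 2 fell (16.7%, against 31.2%), none by more than 0.31 on the log2 scale. Slc4a2, which encodes the chloride-bicarbonate exchanger AE2, averaged 37.0 ± 1.10 FPKM in co-culture, 44.0 ± 0.639 FPKM in IL-1β and 35.7 ± 1.76 FPKM in control libraries (SD, n = 3 each). The sodium-bicarbonate cotransporter gene Slc4a7 and the potassium-chloride cotransporter gene Slc12a4 also rose with IL-1β, by 0.29 and 0.15 (log2, adjusted p of 6.1e-04 and 0.012, limma), and overlapped the controls in co-culture. Slc12a2, which encodes the sodium-potassium-chloride cotransporter NKCC1, was at 15.77, 16.56 and 16.73 FPKM in co-culture and 15.88, 17.48 and 16.42 FPKM in IL-1β, against 13.96, 13.64 and 13.73 FPKM in control libraries. Co-culture and IL-1β libraries overlapped, and both lay above every control. Of the 7 sodium, proton and calcium exchangers 2 rose and 2 fell with IL-1β (28.6% each). Slc8b1, which encodes the mitochondrial sodium-calcium exchanger NCLX, had 20.03, 17.93 and 18.78 FPKM in IL-1β and 12.51, 11.45 and 11.19 FPKM in control libraries, a rise of 0.65 ± 0.05 (SE, adjusted p = 1.0e-06, limma). Slc24a3, a potassium-dependent sodium-calcium exchanger, had 4.37, 4.36 and 3.84 FPKM in IL-1β, against 6.53, 6.54 and 6.46 FPKM in control libraries.

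Among the organic acid and organic ion carriers, 4 of 14 rose with IL-1β (28.6%, against 20.5% of all genes) and 3 fell (21.4%, against 31.2%). Slc16a1 and Slc16a3, set aside by name, are not in the class. Beside Slc47a1 and Slc16a14 above, Slc10a7 fell to 12.57, 12.87 and 14.02 FPKM in IL-1β, against 19.17, 20.71 and 19.09 FPKM in control libraries. In co-culture it had 18.62, 17.39 and 18.11 FPKM, below the controls without overlap but with an adjusted p of 0.13 (limma). Slc10a3, with the highest mean level of the class, averaged 19.2 ± 0.471 FPKM in co-culture, 18.8 ± 1.24 FPKM in IL-1β and 18.5 ± 0.526 FPKM in control libraries (SD, n = 3 each). Its groups overlapped. In the lipid class, 3 of 6 rose (50.0%) and 2 fell (33.3%) with IL-1β. The choline carrier gene Slc44a1 had 50.54, 51.10 and 51.61 FPKM in IL-1β and 36.76, 36.75 and 35.74 FPKM in control libraries, with 38.51, 39.20 and 40.33 FPKM in co-culture. Slc33a1, which encodes the acetyl-CoA carrier of the endoplasmic reticulum, had 36.73, 38.27 and 38.29 FPKM in IL-1β, against 25.95, 25.48 and 26.93 FPKM in control libraries. Their rises with IL-1β were 0.48 ± 0.03 and 0.52 ± 0.04 (SE, adjusted p of 1.3e-07 and 9.0e-07, limma). The scaffold gene Slc9a3r2, called Nherf2 in RefSeq, fell with IL-1β where its paralogue Slc9a3r1 rose. It averaged 5.99 ± 0.369 FPKM in co-culture, 4.98 ± 0.075 FPKM in IL-1β and 6.69 ± 0.436 FPKM in control libraries (SD, n = 3 each).

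In co-culture against IL-1β, 48 of the 176 genes rose, 45 fell and 83 did not pass the threshold (limma, adjusted over all genes). The 93 genes are 52.8% of the set, against 50.0% of all genes tested. Rises made up 27.3% of the set against 33.3% of all genes, and falls 25.6% against 16.7%. The median log2 difference was -0.004 for the set and 0.06 for all genes. With the median of ratios, 35 rose and 59 fell. By at least 1 on the log2 scale, Slc16a14 rose (0.739% of all genes did) and 6 genes fell (1.88% of all genes did): Slc15a3, Slc1a1, Slc11a2, Slc25a37, Slc47a1 and Slc43a2. Of these, Slc15a3 and Slc47a1 reached the level limit through IL-1β alone, so that their falls were fixed by the rule. Slc11a2 fell by 1.38 on the log2 scale (SE 0.03, adjusted p = 6.7e-12, limma). Slc16a14 rose by 1.19 ± 0.05 (SE, adjusted p = 7.3e-09, limma). This comparison and that of IL-1β with control share the 3 IL-1β libraries, so a gene that is extreme in those libraries moves in opposite directions in them, and the levels of all 3 groups are given above for that reason.

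Between co-culture and control libraries fewer genes differed and by less. Of the 176 genes, 20 were higher in co-culture, 16 lower and 140 did not pass (limma, adjusted over all genes). These shares, 20.5% in all, 11.4% higher and 9.09% lower, stood beside 20.3%, 12.4% and 7.91% of all genes tested. The lower count became 10 when control replicate 2 was left out, and with quantile normalization 16 were higher and 20 lower. No gene differed by 1 or more on the log2 scale, where 0.369% of all genes were higher and 0.0528% lower by that much. Slc25a37 was above control by 0.51 ± 0.04 (SE, adjusted p = 2.4e-06, limma). Slc11a2 was above control by 0.43 ± 0.03 (SE, adjusted p = 8.1e-07, limma), Slc39a14 by 0.32 ± 0.03 (SE, adjusted p = 7.8e-06, limma) and Slc20a1 by 0.24 ± 0.03 (SE, adjusted p = 2.1e-04, limma). These are also genes that differed between co-culture and IL-1β, so their levels in co-culture lay between those of the other groups. Among the 36 genes that passed, Slc40a1 was furthest below control, by 0.62 on the log2 scale (SE 0.18, adjusted p = 0.031, limma), but its values were near 1 FPKM and its co-culture mean was below it, so that it reached the limit through the other groups. That call was lost with no filter on low values, and without co-culture replicate 1 or 3 or control replicate 1 or 2 (log2 difference -0.67 to -0.48, adjusted p of 0.061 to 0.10). Slc6a9 was lower by 0.47 (SE 0.04, adjusted p = 1.8e-05, limma) and Slc2a13 by 0.45 (SE 0.06, adjusted p = 4.9e-04, limma). Of the 36 genes, 24 kept their call under every alternative run on them.

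**Figure D5:**
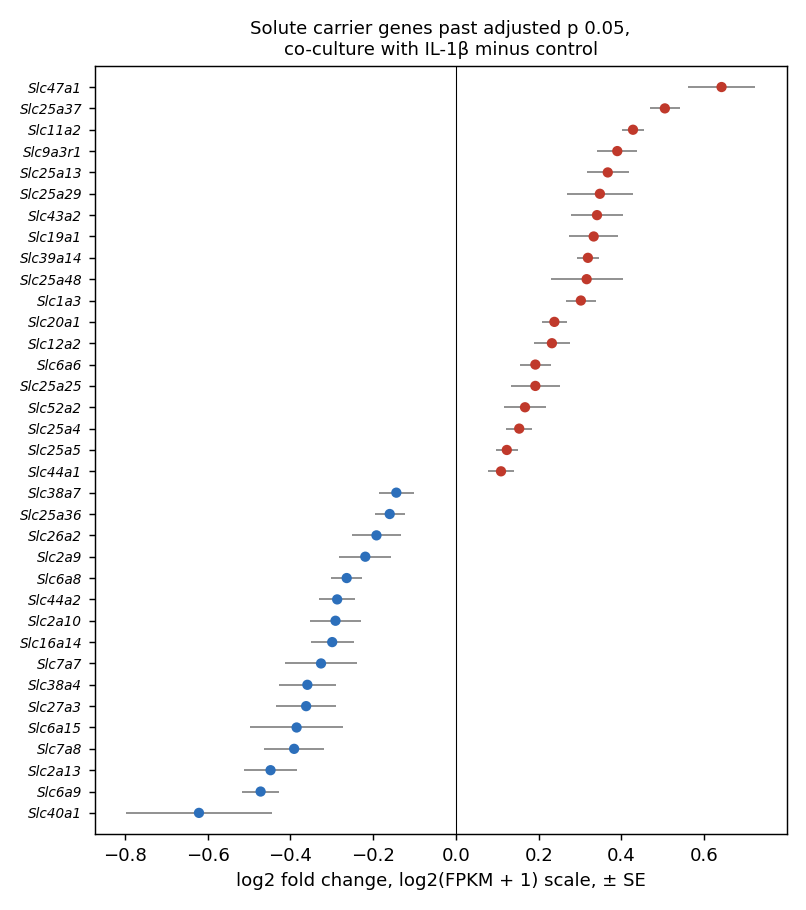
Log2 fold change on the log2(FPKM + 1) scale of co-culture against control (horizontal axis; bars are ± SE) for 35 of the 36 solute carrier genes that passed an adjusted p of 0.05, ordered by size. Slc47a1 is highest at 0.64 and Slc40a1 lowest at -0.62 with the widest bar.

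By substrate, 7 of the 36 mitochondrial carriers were higher in co-culture than in control libraries (19.4%, against 12.4% of all genes) and 1 was lower (2.78%, against 7.91%), which became 4 and 2 with quantile normalization. Of the amino acid carriers left by the rule 7 of 23 were lower (30.4%, against 7.91% of all genes) and 3 higher (13.0%, against 12.4%). Among the 7, the calls of Slc38a7, Slc6a15 and Slc7a7 were weak, lost in 7 of 18, 4 of 17 and 4 of 17 alternatives. Slc6a15 had a co-culture mean of 0.887 FPKM, so that it reached the level limit through the other groups. Sugar carriers had 3 of 13 lower (23.1%) and 0 higher with limma, where an unadjusted p under 0.05 gave 6 lower and 1 higher. Of the 7 sodium, proton and calcium exchangers 0 passed, also at an unadjusted p under 0.05. The counts for the remaining classes were between 0 and 2 in each direction.

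Carriers of the same superfamily that go by other symbols were followed as a list of 44, of which 24 were tested. This list too was chosen with earlier results known, and its shares are descriptions only. With IL-1β 8 rose (33.3%, against 20.5% of all genes) and 4 fell (16.7%, against 31.2%). In co-culture against IL-1β 4 rose (16.7%, against 33.3%) and 7 fell (29.2%, against 16.7%). The median log2 differences were 0.03 and -0.035, against -0.04 and 0.06 for all genes. Tmem165, which encodes a Golgi carrier of manganese and calcium, had 76.89, 76.76 and 78.38 FPKM in IL-1β and 42.69, 43.36 and 42.77 FPKM in control libraries. In co-culture it had 47.99, 45.72 and 48.76 FPKM, and no groups overlapped. Ankh, whose product is linked to the export of pyrophosphate precursors and guards joints against mineral, fell to 20.98, 20.28 and 20.90 FPKM in IL-1β, against 43.84, 40.96 and 41.99 FPKM in control libraries. Its co-culture values of 36.08, 40.31 and 38.60 FPKM lay below the controls. The organic anion carrier gene Slco4a1 averaged 1.44 ± 0.225 FPKM in co-culture, 3.19 ± 0.312 FPKM in IL-1β and 0.497 ± 0.193 FPKM in control libraries (SD, n = 3 each). The prostaglandin carrier gene Slco2a1 averaged 2.44 ± 0.144 FPKM in co-culture, 4.22 ± 0.174 FPKM in IL-1β and 1.76 ± 0.242 FPKM in control libraries (SD, n = 3 each). Both rose with IL-1β (adjusted p of 3.2e-07 and 8.6e-07, limma), Slco4a1 with a control mean below 1 FPKM, so that it was tested because of its other groups.

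Subunits and regulators that work with solute carriers made a list of 12, of which 11 were tested. As with the other lists, earlier results were known when it was chosen, so its shares are descriptions only. With IL-1β 3 rose (27.3%, against 20.5% of all genes) and 8 fell (72.7%, against 31.2%). In co-culture against IL-1β 6 rose (54.5%, against 33.3%) and 4 fell (36.4%, against 16.7%). The median log2 differences were -0.14 and 0.12, against -0.04 and 0.06 for all genes. Atp1b1, which encodes a subunit of the sodium pump that maintains the gradient many carriers use, had 21.50, 21.23 and 22.26 FPKM in IL-1β, against 52.00, 50.22 and 51.86 FPKM in control libraries. In co-culture it had 52.47, 52.05 and 50.51 FPKM, overlapping the controls. The log2 difference with IL-1β was -1.21 ± 0.03 (SE, adjusted p = 5.3e-11, limma). Bsg and Emb encode the partner glycoproteins that take monocarboxylate carriers to the cell surface. Bsg rose with IL-1β, with 479 ± 8.83 FPKM in IL-1β and 401 ± 5.18 FPKM in control libraries (SD, n = 3 each), and Emb fell, with 43.7 ± 2.48 FPKM in IL-1β and 52.8 ± 1.59 FPKM in control libraries (SD, n = 3 each). Arl6ip5, which encodes an inhibitor of the glutamate carrier of Slc1a1, averaged 221 ± 2.31 FPKM in co-culture, 280 ± 6.37 FPKM in IL-1β and 216 ± 12.9 FPKM in control libraries (SD, n = 3 each).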

How the data were processed

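The deposited table held FPKM values with 2 decimals for 17298 genes in 9 libraries, per the file headers. Per the labels' protocols, mRNA was enriched by its poly(A) tail and cDNA was primed at random. The submitters' processing notes name the build GRCm38, which is a mouse build, while the rows carry rat gene IDs; 175 of the 176 IDs were found in the rat RefSeq table (GRCr8). Aligner, quantifier and strand setting: not given in the sources used here. Levels are therefore safer to compare across libraries than across genes, and reads of overlapping or antisense genes cannot be told apart. None of the 176 genes shared all its values with another gene tested. Low values were examined for steps of whole reads: 21.3% of 423 values in 179 genes lay within 0.05 of a whole multiple of the gene's smallest value, so depth was not recovered and precision rests on 3 libraries per group.

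Genes with a mean of at least 1 FPKM (11372) entered the test on the scale log2(FPKM + 1), computed here from the deposited values. The test was limma 3.58.1 (R 4.3.3), with all 9 libraries in 1 model, trended and robust moderation, and Benjamini-Hochberg adjustment over all genes, two-sided, with 0.05 as the threshold. A log2 difference on this scale understates the change of low genes. The steps were tested on simulated data. Named genes are the 10 largest rises and falls in each comparison without overlap between groups, the 3 most abundant genes and the 3 with the smallest p for IL-1β in each class, the 3 on either side of the level limit, and 3 per accompanying list and comparison. The genes, classes and lists were chosen with earlier results of these data known, and 2 genes were added to the class table after the files were read. Alternatives were other pseudocounts, filters and scalings, other moderation, 2 groups in the fit, a replicate block and leaving out each library. Values of 2 of the 176 genes are not reported here; counts include them.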

Additional observations from a re-analysis of the deposited data

How the results depend on the processing

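Of the 103 calls for IL-1β against control, 84 held under every alternative run on the gene, of the 93 for co-culture against IL-1β 67 held, and of the 36 for co-culture against control 24 held; no called solute carrier changed sign. The count lower in co-culture than in control was 16, and became 9 with a filter at 5 FPKM, which leaves 122 genes, and 10 to 17 with 1 library left out. Slc25a5 differed by 0.002 between IL-1β and control (log2, not called) and by -0.075 with quantile normalization (adjusted p = 0.039, limma); the cause was not tested. With 1 library left out, genes higher with IL-1β numbered 41 to 45 and lower 48 to 58. For co-culture against IL-1β they numbered 41 to 48 and 36 to 45, and higher against control 16 to 20. With a replicate block the counts were 45 and 58, 49 and 44, and 20 and 15. Libraries of the same number did not deviate together throughout (r of -0.046 to 0.189, mostly positive), and those of different numbers had r of -0.221 to 0.133. The numbers were not taken as pairs, and the replicate block gives the counts if they are. Depth is unknown, so no counting error could be given.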
